A study of Mus musculus with 51 samples.

Results

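The comparison set 2 Tet-Myc lines kept in doxycycline (line 1 and line 2, 1 array each) against 6 F-class clones (clones 1, 2, 6, 7, 13 and 27, 1 array each). These 8 of the 51 arrays of the series were picked by their titles and descriptions, not by expression values. Whether expression entered the class labels themselves is not stated. The series followed mouse embryonic fibroblasts carrying doxycycline-inducible C-Myc, Klf4, Oct4 and Sox2, from which clonal lines were derived and kept in doxycycline. The 6 clones were profiled at day 16, and every sample of the series carries the strain label rtTA Mouse. Each Tet-Myc line was also profiled after 48 h without doxycycline, and those 2 arrays are given beside the others. A second set of F-class arrays, 2 at hour 0 of a histone deacetylase inhibitor (HDACi) experiment, served as another F-class reference. The labels do not say whether the Tet-Myc lines are F-class, which factors they carry besides the tet-controlled Myc, or on what basis clones were called F-class. Nor do they say that arrays of a group are separate cultures. The p-values then cover only the spread among arrays, part of which may be technical. The labels do not name the HDACi.

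F-class cells are known as a reprogrammed state that needs continued transgene expression and keeps Nanog and Oct4 on while lacking much of the ESC programme. In a tet-controlled system, doxycycline lets the rtTA activator switch on the transgene, so its withdrawal switches the transgene off. MYC is a transcription factor that pairs with MAX, binds the E-box CACGTG, and drives genes of ribosome assembly, nucleotide synthesis and cell growth. NANOG, SOX2 and OCT4 (the product of Pou5f1) form the core circuit of pluripotent cells, and OCT4 and SOX2 bind side by side at an octamer next to a Sox site.

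Promoters of 4 genes of the comparison are shown because they hold a MYC or an OCT4 and SOX2 motif. Of these, Nop2 and Nme1 are members of the Myc target lists below, and their own changes are not given here. Each is 300 bases, from 250 before the gene's start to 50 from it, in RefSeq for GRCm38.p6, written 5′ to 3′ on the gene's strand. Capitals mark the octamer next to a Sox site in Nanog, which fell in the Tet-Myc lines, and the E-box in Nop2 (ribosome assembly), Nme1 (nucleotide kinase) and Slc38a5 (an amino acid transporter, the largest rise). Nanog lies at chr6:122707239-122707538 (+ strand), Nop2 at chr6:125131633-125131932 (+ strand), Nme1 at chr11:93968223-93968522 (- strand) and Slc38a5 at chrX:8271131-8271430 (+ strand).
Nanog: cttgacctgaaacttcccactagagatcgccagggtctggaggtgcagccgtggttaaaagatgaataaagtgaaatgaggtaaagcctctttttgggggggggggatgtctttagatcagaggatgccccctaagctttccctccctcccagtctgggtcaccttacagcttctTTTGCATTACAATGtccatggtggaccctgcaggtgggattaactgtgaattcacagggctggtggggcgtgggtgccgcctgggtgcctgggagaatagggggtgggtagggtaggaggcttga
Nop2: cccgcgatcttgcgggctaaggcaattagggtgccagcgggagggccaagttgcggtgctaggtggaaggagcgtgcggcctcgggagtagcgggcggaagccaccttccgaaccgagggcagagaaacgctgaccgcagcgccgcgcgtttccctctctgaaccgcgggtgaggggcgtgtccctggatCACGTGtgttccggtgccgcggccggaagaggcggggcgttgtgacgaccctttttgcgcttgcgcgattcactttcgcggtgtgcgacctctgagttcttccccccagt
Nme1: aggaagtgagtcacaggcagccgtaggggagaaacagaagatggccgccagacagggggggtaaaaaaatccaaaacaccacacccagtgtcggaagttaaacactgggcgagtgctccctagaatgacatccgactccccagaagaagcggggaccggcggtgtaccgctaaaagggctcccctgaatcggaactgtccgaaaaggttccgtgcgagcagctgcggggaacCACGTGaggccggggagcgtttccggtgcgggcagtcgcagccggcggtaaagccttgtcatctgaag
Slc38a5: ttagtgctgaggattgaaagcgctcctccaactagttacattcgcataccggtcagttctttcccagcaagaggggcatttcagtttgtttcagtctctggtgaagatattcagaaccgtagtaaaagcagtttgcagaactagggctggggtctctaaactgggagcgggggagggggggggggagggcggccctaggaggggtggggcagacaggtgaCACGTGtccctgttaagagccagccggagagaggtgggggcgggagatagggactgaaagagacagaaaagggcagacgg

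The octamer–Sox pattern searched, TTTGCAT and, after any 1 base, ACAATG, on either strand, began 75 bases before the Nanog start, and 2 of 32851 promoters of this length (0.00609%) held it, both of them Nanog's. The E-box began 60 bases before the start of Nop2, 18 before that of Nme1 and 30 before that of Slc38a5. It was found in 2349 of the 32851 promoters (7.15%). Of 19 promoters of the ribosome biogenesis list 3 held it (15.8%; Nop2, Pes1 and Tsr1), of 26 of the list of other Myc targets in metabolism and growth 8 did (30.8%), of 15 of the largest rises 1 did (6.67%, Slc38a5) and of 15 of the largest falls 0 did. A match describes letters and is no evidence of binding.

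Levels are normalized log2 intensities, on which 1 unit is a factor of 2, and a log2 fold change is the Tet-Myc mean minus the F-class mean, also where it follows an HDACi 0 h level. The intensity medians of the 8 arrays ran from 121.9 to 133.9, and 46.6% to 49.8% of probes were detected on each. Over 11755 genes the Tet-Myc lines correlated at r = 0.966 with each other, and at 0.921 to 0.935 (mean 0.929) with the clones. Pairs of clones gave 0.967 to 0.989 (mean 0.982), the HDACi 0 h arrays with the clones a mean of 0.938, and the Tet-Myc lines with the HDACi 0 h arrays a mean of 0.916. For scale, the Tet-Myc lines had a mean r of 0.949 with the same lines 48 h without doxycycline, 0.935 with C-class clones (another class of clonal lines in the series), 0.897 with iPSC, 0.896 with ESC and 0.827 with fibroblasts. These correlations run across genes, which are not independent replicates. The deposited values of the 6 clones were written with 1 decimal and those of the Tet-Myc and HDACi 0 h arrays with 4 or 5, so the number format and the group cannot be told apart in the main comparison, whereas the HDACi 0 h arrays share the Tet-Myc format.

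Of 9432 genes tested, 4062 (43.1%) differed between the Tet-Myc lines and the clones at an adjusted p under 0.05 (limma, Benjamini-Hochberg over all genes tested). They comprised 2070 genes higher (21.9%) and 1992 lower (21.1%) in the Tet-Myc lines, and the median log2 fold change was -0.03. At 2-fold or more, 970 called genes were higher (10.3%) and 710 lower (7.53%). Both Tet-Myc arrays lay above all 6 clones for 2357 genes (25.0%) and below them for 2414 (25.6%). Leaving out line 2 reduced the calls to 2565 (1298 higher and 1267 lower), and leaving out line 1 to 2926 (1355 higher and 1571 lower).

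Against the HDACi 0 h arrays, 3749 of 9864 genes were called (38.0%), with 1890 higher (19.2%) and 1859 lower (18.8%) in the Tet-Myc lines. The F-class sets also differed from each other, with 2351 of 9864 genes higher (23.8%) and 2285 lower (23.2%) in the HDACi 0 h arrays than in the clones. Without the first or the second HDACi 0 h array these counts were 2310 and 2237 for the Tet-Myc lines against HDACi 0 h, and 2622 and 2739 for HDACi 0 h against the clones. When all 11 arrays labelled F-class formed 1 group (the 6 clones, the 2 HDACi 0 h arrays, clone 1 at day 30 and days 16 and 18 of a secondary course), 884 of 10188 genes were higher (8.68%) and 646 lower (6.34%) in the Tet-Myc lines. With the number format as a term in that fit the counts were 1172 (11.5%) and 1040 (10.2%). Both Tet-Myc arrays were written with more than 1 decimal, so this term in effect sets them against the 4 F-class arrays written likewise. These are the 2 HDACi 0 h arrays and days 16 and 18 of the secondary course, so format and experiment cannot be told apart there. Both Tet-Myc arrays lay above all 11 F-class arrays for 1139 of the 9432 genes (12.1%) and below them for 988 (10.5%). The results below therefore give both F-class sets, which share the Tet-Myc arrays. Where a list count below has no share beside it, the share of all genes given above for the same comparison applies.

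**Figure D1:**
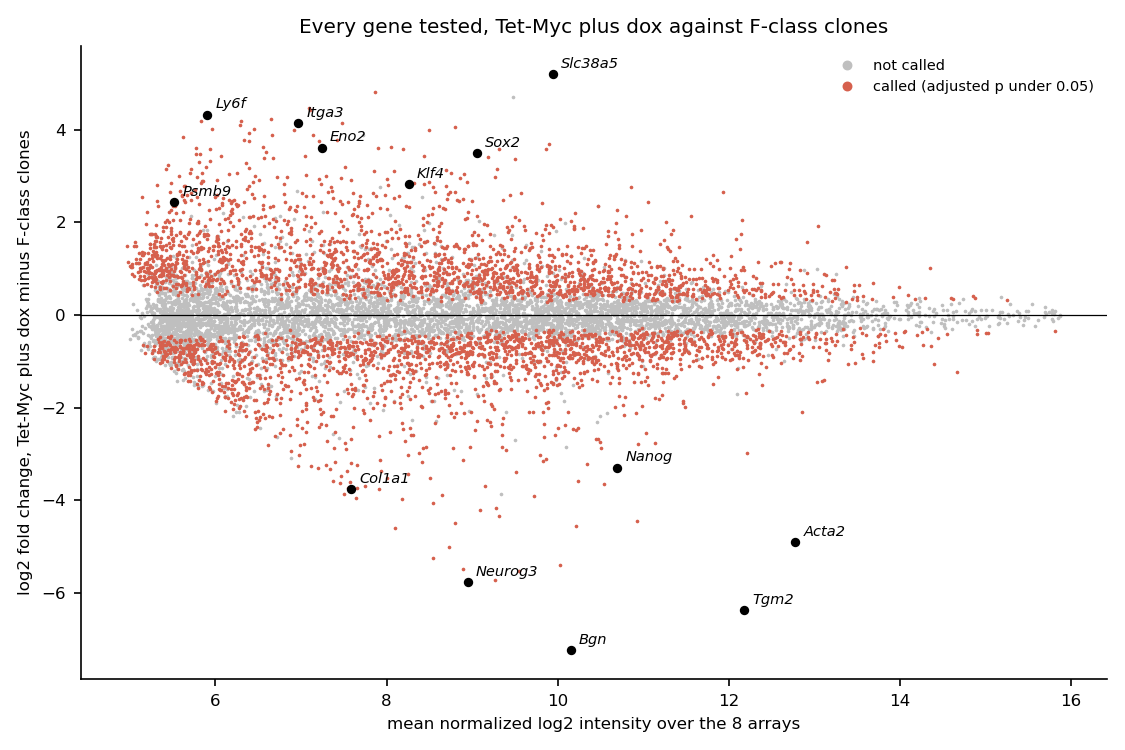
Log2 fold change of each of 9432 genes (Tet-Myc plus dox minus F-class clones, vertical axis) against its mean normalized log2 intensity over the 8 arrays (horizontal axis), with called genes in red, the others in grey and 13 genes named. Slc38a5 is at the top with 5.20, and Bgn at the bottom with a fitted difference of -7.24, for which only a bound of at least 80.5-fold can be given.

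Of the reprogramming factors, Sox2 and Klf4 were higher in the Tet-Myc lines, Pou5f1 and Myc were not called, and Nanog, which is no reprogramming transgene here, was lower. Nanog had 8.19 and 8.27 in the Tet-Myc lines, against 11.14 to 11.85 (median 11.50) in the clones (log2 fold change -3.29, SE 0.18, adjusted p = 4.5e-05). The HDACi 0 h arrays held 13.22 and 12.59, so both F-class sets lay above both Tet-Myc arrays (log2 fold change -4.67, adjusted p = 4.6e-06 against HDACi 0 h). Without doxycycline the same lines had 8.95 and 10.04, still below every clone. Sox2 had 11.70 and 11.65 in the Tet-Myc lines and 7.67 to 9.19 (median 7.98) in the clones (log2 fold change 3.49, SE 0.36, adjusted p = 0.00033). Sox2 read 7.77 and 7.51 at HDACi 0 h (log2 fold change 4.03, adjusted p = 0.00014). The groups did not overlap, and the lines kept 12.33 and 11.92 without doxycycline. Where the Sox2 probe lies on the transcript is not given, so transgene and endogenous Sox2 cannot be told apart.

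Klf4 had 10.25 and 10.52 in the Tet-Myc lines, against 6.83 to 8.24 (median 7.52) in the clones (log2 fold change 2.83, SE 0.37, adjusted p = 0.00088). Klf4 read 7.09 and 6.74 at HDACi 0 h (log2 fold change 3.47, adjusted p = 0.00038). Its 3 tested probes disagreed. A second probe read 9.38 and 9.35 in Tet-Myc lines against 6.16 to 7.23 in clones (log2 fold change 2.62, adjusted p over probes = 0.00023), and the third read the other way, 4.87 and 5.28 in Tet-Myc lines against 5.75 to 7.94 in clones (log2 fold change -1.80, adjusted p over probes = 0.039). The probes' places on the transcript are not given, so the direction for Klf4 holds for the probe used and the second one. Pou5f1 had 14.16 and 13.38 in the Tet-Myc lines and 11.55 to 13.65 (median 12.67) in the clones (log2 fold change 0.99, SE 0.52, adjusted p = 0.15). Line 1 lay above all clones and line 2 among them, and the second Pou5f1 probe was not called either (log2 fold change 0.71, adjusted p over probes = 0.29).

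Myc itself had 6.83 and 6.37 in the Tet-Myc lines and 6.96 to 7.95 (median 7.16) in the clones (log2 fold change -0.72, SE 0.30, adjusted p = 0.084). Myc read 6.66 and 6.91 at HDACi 0 h (log2 fold change -0.18, adjusted p = 0.72) and 5.93 and 6.57 in the lines without doxycycline. Both Tet-Myc values lay below every clone, but the value against the 11 F-class arrays turned to 0.32 with the number format as a term. Which part of the Myc transcript the probe reads is not given, so it cannot check the transgene. The same limit holds for the Pou5f1 and Klf4 probes. Cdh1, the epithelial cadherin, had 9.71 and 10.65 in the Tet-Myc lines and 8.04 to 10.98 (median 9.51) in the clones (log2 fold change 0.77, adjusted p = 0.42), and the clones spanned both Tet-Myc values.

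**Figure D2:**
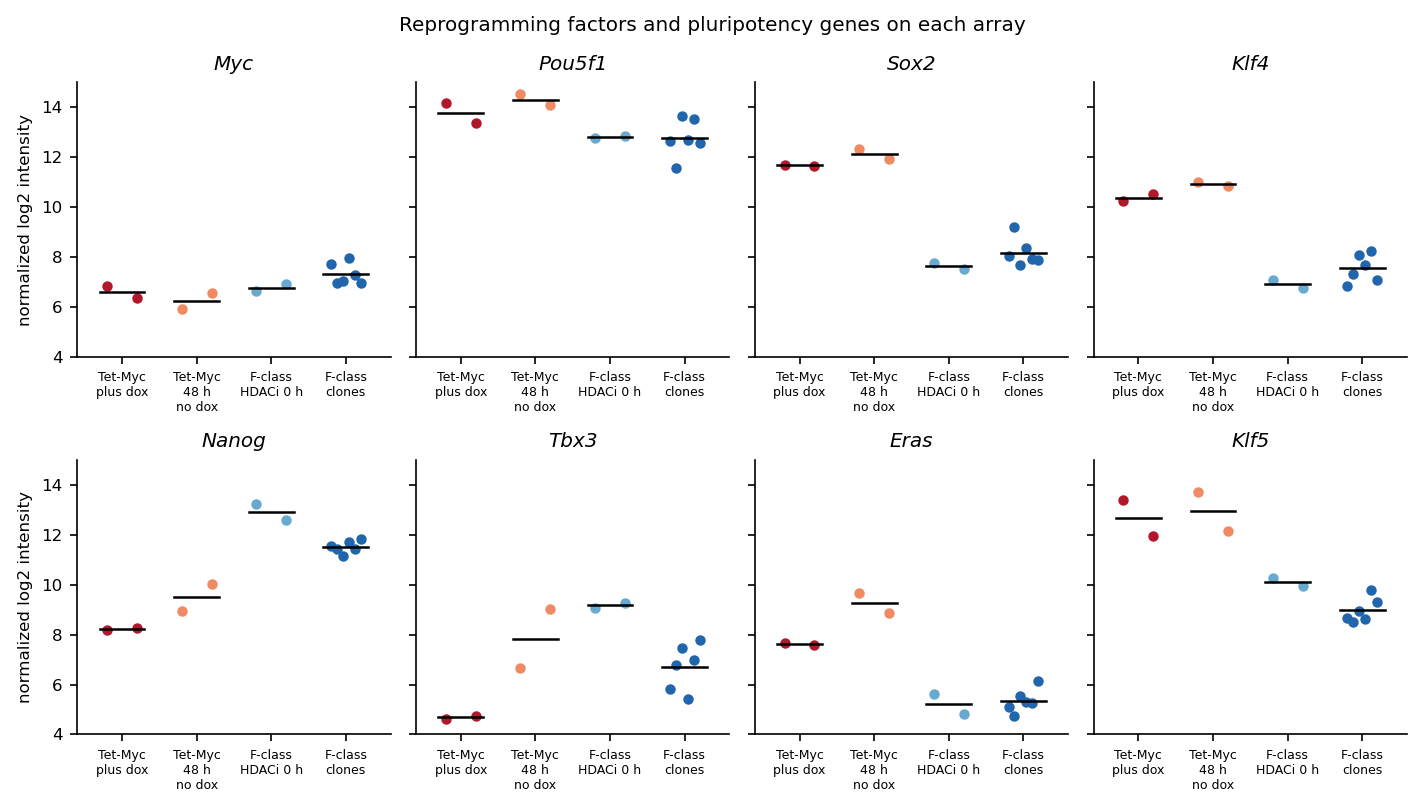
Normalized log2 intensity (vertical axis) of 8 genes on each array, with Tet-Myc plus dox and Tet-Myc 48 h without dox on the left and F-class HDACi 0 h and F-class clones on the right. Points are arrays and bars are means. For Nanog both Tet-Myc plus dox arrays lie below every F-class array shown, and for Sox2, Klf4, Eras and Klf5 above.

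Among 22 tested pluripotency genes 7 were higher and 2 lower than in the clones (median log2 fold change 0.49), set against 21.9% and 21.1% of all genes. Against HDACi 0 h the same list gave 5 higher and 6 lower (median -0.34). Klf5, a zinc finger factor of the naive state, had 13.38 and 11.94 in the Tet-Myc lines and 8.52 to 9.77 (median 8.80) in the clones (log2 fold change 3.68, adjusted p = 0.00055). Eras, an ES cell Ras protein, had 7.66 and 7.60 in Tet-Myc lines and 4.76 to 6.16 (median 5.28) in clones (log2 fold change 2.28, adjusted p = 0.0011). Utf1, a chromatin-bound factor of undifferentiated cells, had 8.99 and 9.72 in Tet-Myc lines and 5.26 to 7.80 (median 6.50) in clones (log2 fold change 2.83, adjusted p = 0.014). All 3 were also called higher against HDACi 0 h, where Klf5 read 10.25 and 9.95, Eras 5.63 and 4.83 and Utf1 6.94 and 5.41. Dppa4, a nuclear protein of pluripotent cells, had 10.92 and 10.62 in Tet-Myc lines against 5.05 to 9.38 (median 7.03) in the clones (log2 fold change 3.63, adjusted p = 0.025). Dppa4 read 11.62 and 10.83 at HDACi 0 h (log2 fold change -0.45, adjusted p = 0.8).

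Tbx3, a T-box factor of naive pluripotency, had 4.62 and 4.75 in the Tet-Myc lines, against 5.41 to 7.78 (median 6.89) in the clones (at least 2.12-fold lower, adjusted p = 0.025). Tbx3 read 9.08 and 9.27 at HDACi 0 h (at least 11.7-fold lower in the Tet-Myc lines, adjusted p = 0.001). It was not well above background on either Tet-Myc array. Dppa5a, an RNA-binding protein of pluripotent cells, had 13.28 and 12.74 in the Tet-Myc lines and 5.08 to 12.04 (median 8.16) in the clones (log2 fold change 4.71, adjusted p = 0.071). The clones spread over much of the scale, and so did the HDACi 0 h arrays with 13.00 and 6.55. Leaving out line 2 reduced the pluripotency genes called higher than in the clones to 4, and leaving out line 1 to 5.

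Of 6 tested genes of the primed epiblast 3 were higher (1 without line 2) and 1 lower than in the clones, and 2 were higher and 0 lower than at HDACi 0 h. Pou3f1, a POU factor of the post-implantation epiblast, had 7.76 and 7.69 in the Tet-Myc lines and 4.86 to 5.77 (median 5.50) in the clones (log2 fold change 2.29, adjusted p = 0.00027). Pou3f1 read 6.61 and 5.87 at HDACi 0 h (log2 fold change 1.49, adjusted p = 0.0047). Zic2, a zinc finger factor, had 7.70 and 8.43 in Tet-Myc lines and 4.97 to 6.99 (median 6.20) in clones (log2 fold change 2.09, adjusted p = 0.015). Dnmt3b, a de novo DNA methyltransferase, had 12.50 and 12.95 in Tet-Myc lines and 10.11 to 11.46 (median 11.04) in clones (log2 fold change 1.83, adjusted p = 0.0087). Zic2 was also higher against HDACi 0 h (log2 fold change 1.81, adjusted p = 0.046), whereas Dnmt3b was not called there (log2 fold change 0.95, adjusted p = 0.2). Fgf15, a growth factor, was lower with 8.67 and 6.84 in Tet-Myc lines, against 8.85 to 10.38 (median 9.61) in the clones (log2 fold change -1.85, adjusted p = 0.018), and close to the 7.78 and 7.86 at HDACi 0 h (log2 fold change -0.06, adjusted p = 0.94). In the Nodal pathway 1 of 9 tested genes was higher and 2 were lower than in the clones (3 and 3 against HDACi 0 h). Foxh1, a partner of the SMAD proteins, had 6.11 and 6.92 in the Tet-Myc lines and 4.63 to 5.19 (median 4.90) in the clones (at least 1.86-fold higher, adjusted p = 0.00098). Smad2, a transducer of the pathway, had 8.56 and 8.23 in Tet-Myc lines and 9.07 to 9.34 (median 9.19) in clones (log2 fold change -0.80, adjusted p = 0.0019).

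In the network of MYC partners and antagonists 2 of 11 tested genes were higher and 2 lower than in the clones. These counts are near the 21.9% and 21.1% of all genes. Against HDACi 0 h 1 of 12 was higher and 4 were lower. Mycl, a paralogue of Myc, had 8.99 and 7.76 in the Tet-Myc lines, against 9.87 to 10.87 (median 10.48) in the clones (log2 fold change -2.01, SE 0.37, adjusted p = 0.0034). Mycl read 11.64 and 11.78 at HDACi 0 h (log2 fold change -3.33, adjusted p = 0.0004). Max, the dimer partner, had 12.00 and 11.53 in Tet-Myc lines and 12.19 to 12.53 (median 12.34) in clones (log2 fold change -0.58, adjusted p = 0.016). Max read 12.73 and 12.84 at HDACi 0 h (log2 fold change -1.02, adjusted p = 0.0019). Both were below every F-class array of either set. The MAX-binding antagonists Mxd3 and Mxd4 were higher. Mxd3 had 6.79 and 7.38 in the Tet-Myc lines and 4.86 to 6.01 (median 5.31) in the clones (log2 fold change 1.73, adjusted p = 0.0024). Mxd4 had 8.49 and 8.62 in Tet-Myc lines and 6.88 to 7.87 (median 7.23) in clones (log2 fold change 1.25, adjusted p = 0.0065). Mxd3 was called against HDACi 0 h as well (log2 fold change 1.59, adjusted p = 0.0096) and Mxd4 was not (log2 fold change 0.52, adjusted p = 0.2).

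Ribosome biogenesis genes, a classic MYC target set, were lower in the Tet-Myc lines than in the clones. Of 19 tested members 14 fell and 0 rose (median log2 fold change -0.65), where 21.1% of all genes were lower, and all 19 had a negative value. Both Tet-Myc arrays lay below all clones for 15 of them, where they did so for 25.6% of all genes. Against the HDACi 0 h arrays 3 were lower and 3 higher (median -0.05), and the HDACi 0 h arrays themselves had 11 lower and 1 higher than the clones (median -0.51). Below all 11 F-class arrays lay 4 members, where 10.5% of all genes did. The fit against these 11 called 2 lower, or 1 with the number format as a term, where 6.34% and 10.2% of all genes were lower. The fall was thus measured against the clones, which also have the other number format, and whether the format has a part in it was not tested.

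Bop1, a pre-ribosome assembly factor, had 9.86 and 9.41 in the Tet-Myc lines, against 10.72 to 11.28 (median 10.97) in the clones (log2 fold change -1.33, SE 0.19, adjusted p = 0.0014). Bop1 read 10.91 and 11.22 at HDACi 0 h (log2 fold change -1.43, adjusted p = 0.0016). Its partner Pes1 had 9.33 and 8.86 in Tet-Myc lines and 9.98 to 10.59 (median 10.27) in clones (log2 fold change -1.18, SE 0.18, adjusted p = 0.0016). Pes1 read 10.89 and 10.77 at HDACi 0 h (log2 fold change -1.74, adjusted p = 0.00033). Rrp12, a factor of ribosome export, had 11.11 and 11.13 in Tet-Myc lines and 11.76 to 12.41 (median 11.92) in clones (log2 fold change -0.90, adjusted p = 0.0073). Rrp12 read 12.31 and 12.18 at HDACi 0 h (log2 fold change -1.13, adjusted p = 0.0043). These were the 3 members lower than in both F-class sets. Ncl, which encodes the nucleolar protein nucleolin, had 11.62 and 11.28 in the Tet-Myc lines and 12.04 to 12.50 (median 12.31) in the clones (log2 fold change -0.86, adjusted p = 0.0028). Ncl read 11.89 and 11.65 at HDACi 0 h (log2 fold change -0.32, adjusted p = 0.2). Without doxycycline the lines had 16 of the 19 members lower than the clones and 0 higher (median -1.02), where 27.2% of all genes were lower and 25.4% higher.

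Among 22 tested Myc targets of metabolism and growth 8 were lower and 2 higher than in the clones (median -0.42), where 21.1% and 21.9% of all genes were. Against HDACi 0 h 5 were higher, near the 19.2% of all genes, and 2 were lower, where 18.8% of all genes were (median 0.27). Ppat, the first enzyme of purine synthesis, had 10.39 and 9.90 in the Tet-Myc lines, against 11.42 to 11.71 (median 11.59) in the clones (log2 fold change -1.44, adjusted p = 0.00034). Ppat read 11.23 and 11.17 at HDACi 0 h (log2 fold change -1.05, adjusted p = 0.0015). Mthfd2, a mitochondrial folate enzyme, had 9.36 and 8.98 in Tet-Myc lines, against 10.25 to 10.85 (median 10.48) in clones (log2 fold change -1.36, adjusted p = 0.0008). Mthfd2 read 9.91 and 9.64 at HDACi 0 h (log2 fold change -0.61, adjusted p = 0.047). Both fell against each set. Its cytosolic counterpart Mthfd1 rose against each, with 12.45 and 12.69 in the Tet-Myc lines, against 11.61 to 11.83 (median 11.74) in the clones (log2 fold change 0.85, adjusted p = 0.00094). Mthfd1 read 11.63 and 11.54 at HDACi 0 h (log2 fold change 0.99, adjusted p = 0.00055). Cdc25a, a phosphatase of cell cycle entry, had 10.22 and 9.93 in Tet-Myc lines and 10.75 to 11.26 (median 11.11) in clones (log2 fold change -0.97, adjusted p = 0.0027). Cdc25a read 10.02 and 9.95 at HDACi 0 h. Eif4e, the cap-binding translation factor, was lower (log2 fold change -0.96, adjusted p = 0.015) and Ccnd2, a G1 cyclin, higher (log2 fold change 0.85, adjusted p = 0.0093) than in the clones, and neither was called against HDACi 0 h (log2 fold change -0.42, adjusted p = 0.33 for Eif4e and log2 fold change 0.39, adjusted p = 0.24 for Ccnd2). With the number format as a term Cdc25a (0.13), Eif4e (0.029) and Ccnd2 (-0.15) turned direction. Without line 2 the number called lower than in the clones was 5.

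Ribosomal protein genes moved little as a list, with 1 of 14 higher and 1 lower than in the clones (median 0.04). Rpl22 had 12.55 and 12.73 in the Tet-Myc lines and 11.10 to 11.71 (median 11.47) in the clones (log2 fold change 1.21, adjusted p = 0.0018). Rplp0 had 11.50 and 11.46 in Tet-Myc lines and 11.66 to 12.33 (median 12.04) in clones (log2 fold change -0.56, adjusted p = 0.039). Neither was called against HDACi 0 h (log2 fold change 0.16, adjusted p = 0.59 and log2 fold change 0.02, adjusted p = 0.96), and Rplp0 turned to 0.077 with the number format as a term.

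**Figure D3:**
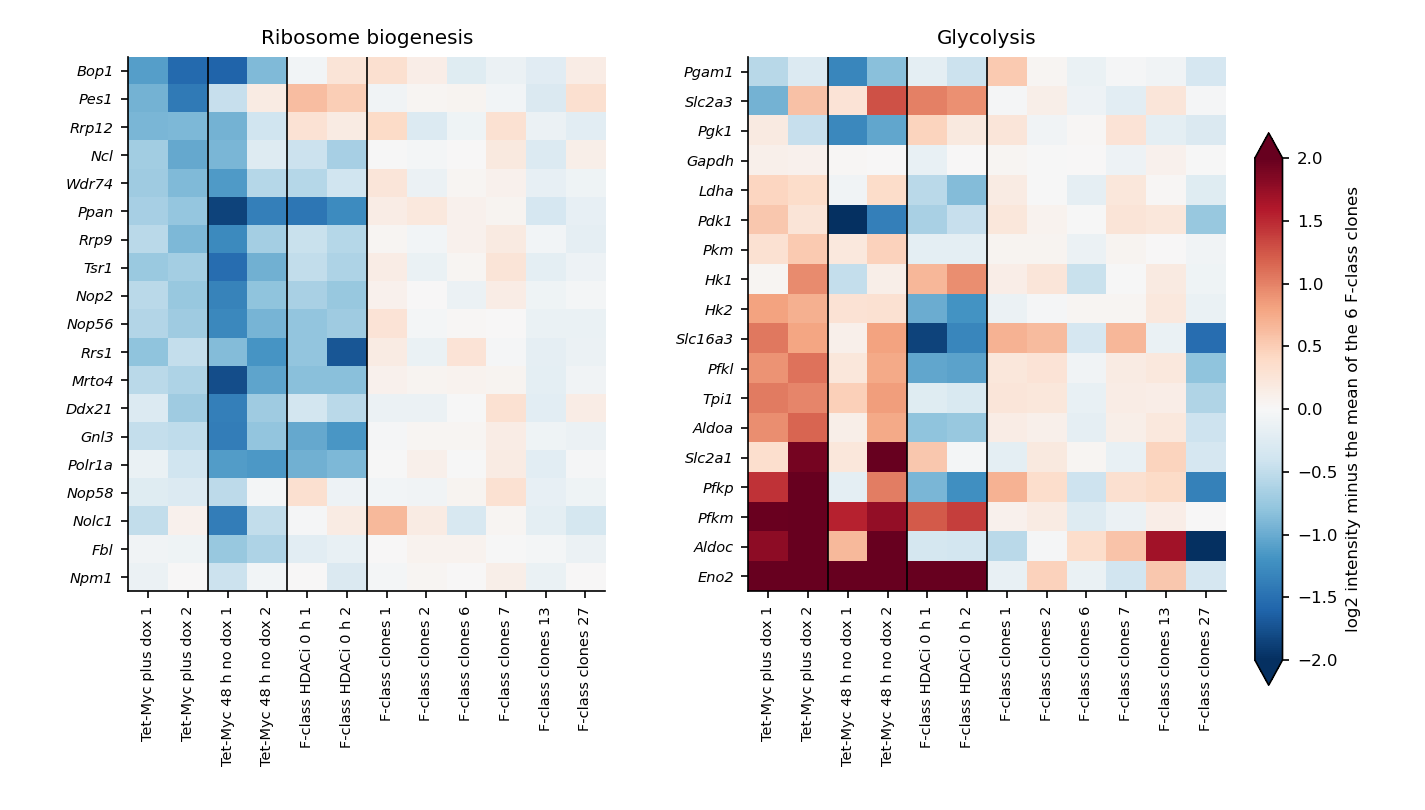
Log2 intensity of each tested ribosome biogenesis gene (left) and glycolysis gene (right) on each array, minus the mean of the 6 F-class clones, with red above and blue below that mean and the scale ending at 2 either way. Tet-Myc arrays are in the leftmost columns. Ribosome biogenesis genes are mostly blue in the Tet-Myc lines with and without dox and in the HDACi 0 h arrays, and glycolysis genes are mostly red in the Tet-Myc plus dox columns.

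Glycolysis genes went the other way. Of 18 tested members 10 were higher and 0 lower than in the clones (median log2 fold change 0.84), and 11 were higher and 1 lower than at HDACi 0 h (median 1.03), where 19.2% of all genes were higher. Both Tet-Myc arrays lay above all clones for 12 members (25.0% of all genes) and above all 11 F-class arrays for 8 (12.1% of all genes). The fit against the 11 called 5 higher, or 6 with the number format as a term. Without line 2 the number called higher than in the clones was 5, and without line 1 it was 9.

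Pfkm, a muscle-type phosphofructokinase, had 12.15 and 12.19 in the Tet-Myc lines, against 9.92 to 10.34 (median 10.22) in the clones (log2 fold change 1.99, SE 0.14, adjusted p = 7.7e-05). Pfkm read 11.40 and 11.57 at HDACi 0 h (log2 fold change 0.69, adjusted p = 0.0091). Pfkp, the platelet-type form, had 11.87 and 12.48 in Tet-Myc lines and 9.08 to 11.13 (median 10.77) in clones (log2 fold change 1.75, SE 0.50, adjusted p = 0.024). Pfkp read 9.52 and 9.20 at HDACi 0 h (log2 fold change 2.82, adjusted p = 0.0049). Eno2, an enolase of neurons, had 9.03 and 10.88 in Tet-Myc lines and 5.95 to 6.87 (median 6.20) in clones (log2 fold change 3.61, SE 0.46, adjusted p = 0.00078). Eno2 read 8.74 and 8.91 at HDACi 0 h (log2 fold change 1.13, adjusted p = 0.12). Both lines lay above every clone for Eno2. Aldoc, an aldolase, had 9.05 and 11.35 in Tet-Myc lines against 5.22 to 8.95 (median 7.43) in the clones (log2 fold change 2.93, adjusted p = 0.033). Aldoc read 6.92 and 6.91 at HDACi 0 h (log2 fold change 3.29, adjusted p = 0.035). Line 2 was well above line 1. Respiratory chain genes gave 2 of 22 higher and 1 lower than in the clones, namely Cox7a1 (log2 fold change 1.59, adjusted p = 0.0038), Ndufv1 (log2 fold change 0.37, adjusted p = 0.038) and Cycs, which encodes cytochrome c (log2 fold change -0.79, adjusted p = 0.0088, turning to 0.16 with the number format as a term). Against HDACi 0 h 2 were higher and 5 lower.

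Genes of DNA replication were lower for 6 of 16 and higher for 1 than in the clones (median -0.27), and higher for 8 and lower for 2 than at HDACi 0 h (median 0.52). The HDACi 0 h arrays had 15 of the 16 lower than the clones. Ccne2, cyclin E2, had 8.23 and 8.30 in the Tet-Myc lines, against 10.16 to 10.51 (median 10.39) in the clones (log2 fold change -2.09, SE 0.13, adjusted p = 6.5e-05). Ccne2 read 9.04 and 8.87 at HDACi 0 h (log2 fold change -0.69, adjusted p = 0.0065), so it was lowest in the Tet-Myc lines. Mcm7, a subunit of the replicative helicase, had 10.42 and 10.42 in Tet-Myc lines, lower than the 11.01 to 11.46 (median 11.23) of the clones (log2 fold change -0.79, adjusted p = 0.003) and higher than the 9.69 and 9.75 of HDACi 0 h (log2 fold change 0.70, adjusted p = 0.0082), and its value turned to 0.30 with the number format as a term. Cdc6, a licensing factor, and Pcna, the polymerase clamp, were lower than in the clones (log2 fold change -0.99, adjusted p = 0.0022 for Cdc6 and log2 fold change -0.88, adjusted p = 0.023 for Pcna), and neither was called against HDACi 0 h. Rrm1, a ribonucleotide reductase subunit, was higher than in both, with 11.78 and 11.90 in the Tet-Myc lines, against 11.28 to 11.54 (median 11.39) in the clones (log2 fold change 0.44, adjusted p = 0.017). Rrm1 read 10.59 and 10.47 at HDACi 0 h (log2 fold change 1.31, adjusted p = 0.00015). Without line 2 the replication genes called lower than in the clones numbered 3, and without line 1 they numbered 4.

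Mitosis genes gave 3 higher and 3 lower of 14 against the clones (1 lower and 2 higher without line 2). These counts are near the 21.9% and 21.1% of all genes. Against HDACi 0 h 8 were higher and 0 lower, where 19.2% and 18.8% of all genes were. Nusap1, a spindle protein, had 12.33 and 12.22 in the Tet-Myc lines, against 11.04 to 11.49 (median 11.32) in the clones (log2 fold change 0.99, adjusted p = 0.0016). Nusap1 read 10.96 and 10.95 at HDACi 0 h (log2 fold change 1.31, adjusted p = 0.00052). Top2a, the topoisomerase of dividing cells, rose in the same way (log2 fold change 0.51, adjusted p = 0.0033 against the clones and log2 fold change 0.94, adjusted p = 0.00049 against HDACi 0 h). Plk1, a mitotic kinase, was lower than in the clones with 6.58 and 5.33 in Tet-Myc lines against 7.01 to 7.41 (median 7.12) in clones (log2 fold change -1.21, adjusted p = 0.011), and was detected on 1 of the 2 Tet-Myc arrays.

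Inhibitors of the cell cycle rose against the clones for 6 of 9 tested and fell for 0 (median 0.97), where 21.9% of all genes were higher. Against HDACi 0 h 3 rose and 0 fell (median 0.34), where 19.2% of all genes were higher, and the fit against the 11 F-class arrays called 2 higher. Without line 1 the count against the clones was 3. Cdkn1b, p27, had 6.81 and 7.40 in the Tet-Myc lines, against 5.27 to 6.21 (median 5.51) in the clones (log2 fold change 1.49, adjusted p = 0.0025). Cdkn1b read 5.75 and 6.26 at HDACi 0 h (log2 fold change 1.10, adjusted p = 0.021), so the lines lay above both sets. Cdkn2c, p18, had 8.62 and 7.63 in Tet-Myc lines and 6.62 to 7.08 (median 6.77) in clones (log2 fold change 1.33, adjusted p = 0.0033). Cdkn2c read 6.62 and 7.05 at HDACi 0 h (log2 fold change 1.29, adjusted p = 0.0076). Cdkn1c, the imprinted inhibitor p57, had 12.87 and 10.63 in Tet-Myc lines against 7.52 to 9.39 (median 8.08) in the clones (log2 fold change 3.41, adjusted p = 0.0061). Cdkn1c read 12.45 and 12.71 at HDACi 0 h (log2 fold change -0.83, adjusted p = 0.46). Rbl1, an RB relative, was higher than in the clones (log2 fold change 0.98, adjusted p = 0.013) and not called against HDACi 0 h (log2 fold change 0.34, adjusted p = 0.37).

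Targets of p53 gave 7 higher and 4 lower (2 lower without line 2) of 19 against the clones (median 0.16), and 15 higher and 1 lower against HDACi 0 h (median 1.15). Of all genes, 21.9% were higher and 21.1% lower than in the clones, and 19.2% higher and 18.8% lower than at HDACi 0 h. For the p53 targets the 2 references stood apart, with 12 of the 19 lower and 3 higher at HDACi 0 h than in the clones. Gadd45b, a stress-response gene, had 9.30 and 9.78 in the Tet-Myc lines, against 7.45 to 8.24 (median 7.78) in the clones (log2 fold change 1.70, adjusted p = 0.0013). Gadd45b read 8.71 and 8.46 at HDACi 0 h (log2 fold change 0.96, adjusted p = 0.027). Rrm2b, a p53-induced ribonucleotide reductase subunit, had 9.49 and 8.98 in Tet-Myc lines, against 7.69 to 8.50 (median 8.02) in clones (log2 fold change 1.14, adjusted p = 0.0054). Rrm2b read 7.96 and 7.60 at HDACi 0 h (log2 fold change 1.46, adjusted p = 0.0033). Plk2, a kinase induced by p53, had 9.83 and 9.59 in Tet-Myc lines, below the 10.34 to 11.14 (median 10.87) of the clones (log2 fold change -1.11, adjusted p = 0.005) and above the 7.26 and 7.41 of HDACi 0 h (log2 fold change 2.38, adjusted p = 0.00017). Its direction thus differed between the F-class sets, and it was 1.36 with the number format as a term.

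The 20 largest falls in the Tet-Myc lines included Tgm2, Bgn, Serpinf1, Tnc, Igfbp7 and Inhba. Tgm2, a transglutaminase that cross-links matrix proteins, had 7.30 and 7.48 in the Tet-Myc lines, against 13.44 to 14.06 (median 13.81) in the clones (log2 fold change -6.38, SE 0.17, adjusted p = 1.7e-06). Tgm2 read 13.59 and 13.66 at HDACi 0 h (log2 fold change -6.23, adjusted p = 3.8e-07). Bgn, the matrix proteoglycan biglycan, had 4.82 and 4.62 in Tet-Myc lines and 11.36 to 12.80 (median 11.82) in clones (at least 80.5-fold lower, adjusted p = 4.5e-05). Bgn read 11.19 and 11.81 at HDACi 0 h (at least 58.5-fold lower in the Tet-Myc lines, adjusted p = 1.8e-05). Bgn was not well above background on either Tet-Myc array and was detected on every F-class array of both sets. For such genes the fold is a lower bound, the bright group's mean over that of the dim arrays, each taken at no less than that array's dimmest detected probe. Where only some clones detected a gene, the fitted change is given. This holds for Cdkn1b, Eras, Gsta3, Lamb3, Mxd3, Peg3 and Pou3f1 (detected in 1 of 6 clones), Ascl2, Bmp4 and Pwwp2b (2 of 6) and Gngt2, Itga3, Itga7, Krt18, Krt19, Nt5e, Ntn5 and Slc28a1 (3 of 6). Lama1 and Col4a2 in line 1 and Lyz1 in line 2 read near the level of Bgn there, so the size of their fitted changes may rest partly on background. In bulk RNA, fewer cells of a type and less RNA per cell cannot be told apart.

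Serpinf1, a secreted serpin, had 5.16 and 4.80 in the Tet-Myc lines and 9.84 to 11.37 (median 10.66) in the clones (at least 33.5-fold lower, adjusted p = 9.1e-05). Tnc, the matrix glycoprotein tenascin C, had 4.91 and 5.03 in Tet-Myc lines and 9.22 to 10.90 (median 9.92) in clones (at least 20.4-fold lower, adjusted p = 0.00021). Igfbp7, a secreted growth factor binder, had 6.33 and 7.27 in Tet-Myc lines and 10.73 to 12.41 (median 11.20) in clones (log2 fold change -4.55, adjusted p = 0.00031). Inhba, a subunit of activin A, had 4.83 and 4.73 in Tet-Myc lines against 9.46 to 11.08 (median 10.13) in clones (at least 24.7-fold lower, adjusted p = 0.0001). These were far below the clones on both lines, and their HDACi 0 h values were 9.68 and 10.09 for Serpinf1, 8.62 and 8.90 for Tnc, 10.69 and 11.20 for Igfbp7 and 9.58 and 10.18 for Inhba. All 4 were called lower against HDACi 0 h too.

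Lyz1, a lysozyme, Ccl7, a chemokine, and Fam181b were among the 20 largest falls against the clones and were not called against HDACi 0 h. Lyz1 had 5.97 and 4.91 in the Tet-Myc lines, against 9.01 to 10.86 (median 9.94) in the clones (log2 fold change -4.48, adjusted p = 0.00037). Lyz1 read 6.63 and 7.26 at HDACi 0 h (log2 fold change -1.50, adjusted p = 0.062). Ccl7 had 4.88 and 5.50 in Tet-Myc lines, against 7.57 to 10.26 (median 9.27) in clones (at least 11.7-fold lower, adjusted p = 0.0014). Ccl7 read 6.93 and 6.97 at HDACi 0 h. Fam181b had 4.74 and 4.63 in Tet-Myc lines, against 7.76 to 9.58 (median 8.49) in clones (at least 8.02-fold lower, adjusted p = 0.00073). Fam181b read 5.53 and 5.45 at HDACi 0 h. The HDACi 0 h arrays held all 3 at lower levels than any clone. Pga5, a pepsinogen, Hbb-y, an embryonic globin, Dmtn, a red cell membrane protein, Cphx1, a homeobox gene, and Sprr2k, a cornified envelope protein, were lower than in both sets. In Tet-Myc lines against clones, Pga5 had 8.14 and 7.05 against 11.73 to 12.19, Hbb-y 5.38 and 6.75 against 9.58 to 11.05 and Dmtn 5.39 and 6.49 against 9.58 to 10.81. Cphx1 had 5.79 and 5.20 in Tet-Myc lines against 8.72 to 10.12 in clones, and Sprr2k 4.56 and 4.76 in Tet-Myc lines against 8.56 to 10.19 in clones.

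**Figure D4:**
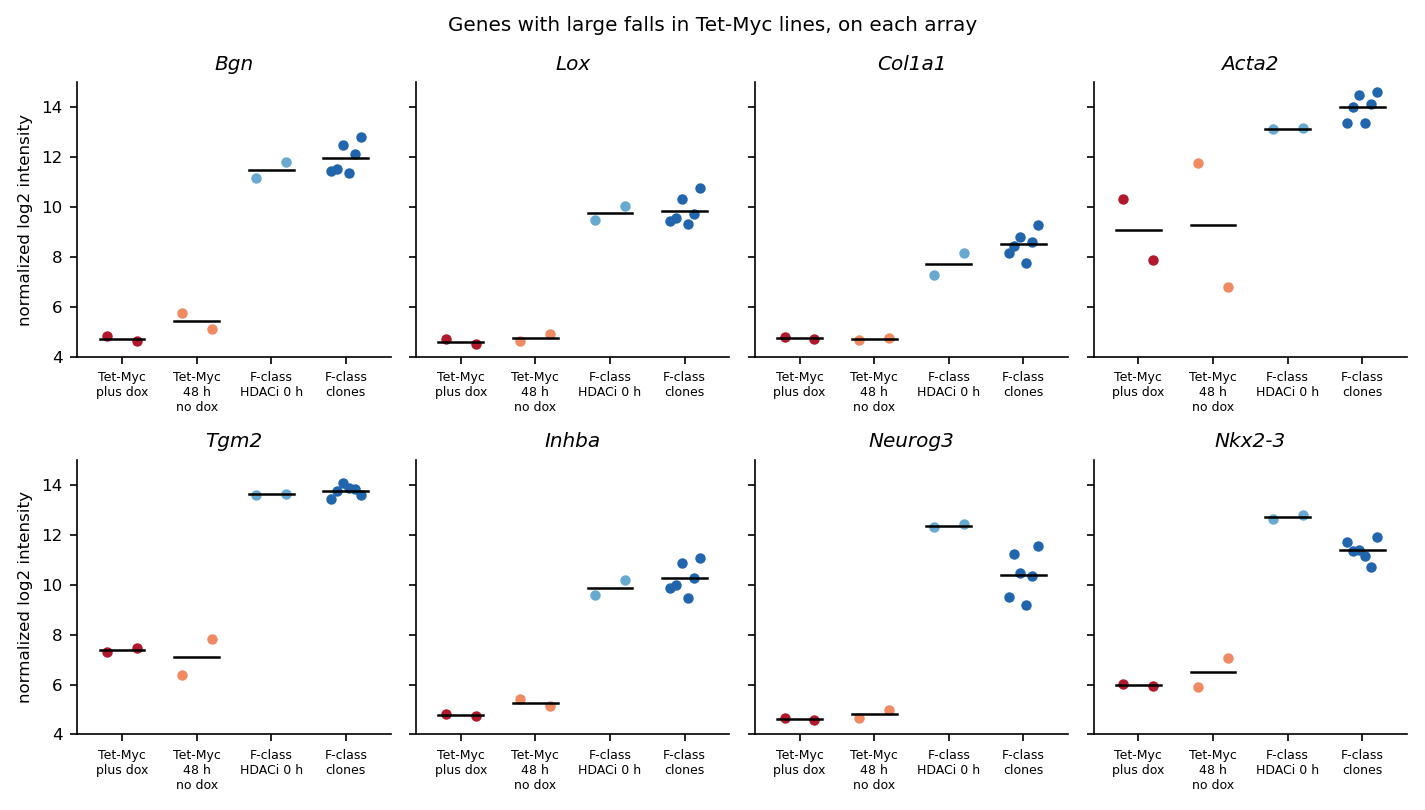
Normalized log2 intensity (vertical axis) of 8 genes with large falls on each array, with Tet-Myc plus dox and Tet-Myc 48 h without dox on the left and F-class HDACi 0 h and F-class clones on the right. Points are arrays and bars are means. In each panel both Tet-Myc plus dox arrays lie below every F-class array shown, and for Acta2 the lines differ, with 10.34 in line 1 and 7.87 in line 2.

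The fibroblast and mesenchyme list had 8 of 22 tested members lower and 0 higher than in the clones (median -0.94), where 21.1% of all genes were lower. Against HDACi 0 h 10 of 23 were lower and 0 higher (median -1.57), where 18.8% of all genes were lower. Both Tet-Myc arrays lay below all 11 F-class arrays for 7 members, where they did so for 10.5% of all genes. Lox, a collagen cross-linking oxidase, had 4.70 and 4.52 in the Tet-Myc lines, against 9.34 to 10.77 (median 9.64) in the clones (at least 18.7-fold lower, adjusted p = 9.1e-05). Lox read 9.49 and 10.07 at HDACi 0 h (at least 17.7-fold lower in the Tet-Myc lines, adjusted p = 5.9e-05). Acta2, smooth muscle actin, had 10.34 and 7.87 in Tet-Myc lines against 13.37 to 14.63 (median 14.07) in the clones (log2 fold change -4.90, SE 0.61, adjusted p = 0.00069). Acta2 read 13.12 and 13.19 at HDACi 0 h (log2 fold change -4.05, adjusted p = 0.002). All 4 of its probes were called lower. Tagln, an actin-binding protein of contractile cells, had 4.70 and 4.72 in Tet-Myc lines and 7.01 to 8.55 (median 7.58) in clones (at least 4.29-fold lower, adjusted p = 0.00086). Fbln2, the matrix protein fibulin 2, had 7.11 and 9.61 in Tet-Myc lines and 10.76 to 11.79 (median 11.19) in clones (log2 fold change -2.86, adjusted p = 0.0047). The lines were alike for Lox and Tagln, and line 2 was well above line 1 for Fbln2.

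Collagens fell for 5 of 10 tested members and rose for 1 against the clones (median -1.77), where 21.1% of all genes were lower. Against HDACi 0 h 6 fell and 0 rose (median -2.08), where 18.8% of all genes were lower. Col1a1, a chain of the main fibrillar collagen, had 4.78 and 4.74 in the Tet-Myc lines, against 7.77 to 9.30 (median 8.53) in the clones (at least 7.42-fold lower, adjusted p = 0.00022). Col1a1 read 7.29 and 8.18 at HDACi 0 h (at least 4.30-fold lower in the Tet-Myc lines, adjusted p = 0.00099). Col5a1, a fibrillar collagen chain, had 6.59 and 5.75 in Tet-Myc lines, against 9.82 to 10.90 (median 10.29) in clones (log2 fold change -4.16, adjusted p = 0.00015). Col5a1 read 10.24 and 10.40 at HDACi 0 h (log2 fold change -4.15, adjusted p = 9.3e-05). The basement membrane chains Col4a1 and Col4a2 were much lower in line 1 than in line 2. Col4a1 had 5.84 and 9.25 in Tet-Myc lines against 9.54 to 11.94 (median 11.30) in the clones (log2 fold change -3.59, adjusted p = 0.013). Col4a2 had 4.53 and 8.25 in Tet-Myc lines against 8.18 to 11.18 (median 10.16) in clones (log2 fold change -3.68, adjusted p = 0.02). Col18a1, another basement membrane collagen, was the member that rose, with 10.97 and 12.24 in the Tet-Myc lines and 9.25 to 10.05 (median 9.74) in the clones (log2 fold change 1.88, adjusted p = 0.0029), and was not called against HDACi 0 h (log2 fold change 0.44, adjusted p = 0.39).

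All 10 feeder fibroblast markers on the array also belong to the fibroblast or collagen list above, so their falls are no separate result. Of these 10, 6 were tested, and 4 were lower and 0 higher than in the clones (Col1a1, Dcn, Twist2 and Thy1), where 21.1% of all genes were lower. Against HDACi 0 h 3 were lower, where 18.8% of all genes were. The mean level of the 10 was 5.23 to 5.37 in the Tet-Myc lines, 6.18 to 6.79 in the clones and 6.21 to 6.54 at HDACi 0 h, and 2 of them were detected on each Tet-Myc array, 5 or 6 on each F-class array. Dcn, the proteoglycan decorin, had 5.96 and 5.64 in the Tet-Myc lines and 6.99 to 8.92 (median 8.52) in the clones (log2 fold change -2.41, adjusted p = 0.0052). Twist2, a mesenchymal factor, had 4.56 and 5.03 in Tet-Myc lines and 6.00 to 7.88 (median 7.03) in clones (at least 2.63-fold lower, adjusted p = 0.0097). Thy1, a surface marker of fibroblasts, had 7.29 and 8.90 in Tet-Myc lines and 9.57 to 10.84 (median 10.13) in clones (log2 fold change -2.10, adjusted p = 0.01). Col1a1 was not detected on either Tet-Myc array. The part of other cells in the falls was not tested.

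Laminins and integrins divided. Of 13 tested members of the list with Cd44 6 were higher and 4 lower than in the clones, where 21.9% and 21.1% of all genes were. Of 14 tested 5 were higher and 4 lower than at HDACi 0 h, where 19.2% and 18.8% of all genes were. Lama1, a laminin chain of early embryonic basement membrane, had 4.76 and 6.04 in the Tet-Myc lines, against 10.01 to 12.15 (median 10.84) in the clones (log2 fold change -5.53, SE 0.55, adjusted p = 0.0003). Lama1 read 11.38 and 11.71 at HDACi 0 h (log2 fold change -6.14, adjusted p = 0.00014). Lamb1, its partner chain, was lower as well, with 4.88 and 4.90 in Tet-Myc lines against 5.54 to 6.23 (median 5.93) in clones (at least 1.21-fold lower, adjusted p = 0.0054). Lamb2, a chain that takes the place of Lamb1 in other laminins, had 9.33 and 9.63 in Tet-Myc lines against 6.70 to 7.79 (median 7.27) in clones (log2 fold change 2.21, adjusted p = 0.00055). Lamb2 read 8.78 and 9.09 at HDACi 0 h (log2 fold change 0.55, adjusted p = 0.19). Lamb3, a chain of epithelial laminin, had 6.55 and 6.86 in Tet-Myc lines against 4.69 to 5.60 (median 5.08) in clones (log2 fold change 1.60, adjusted p = 0.0026).

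Among integrins, the receptors of these laminins, Itga3 and Itga7 rose. Itga3 had 9.02 and 11.13 in the Tet-Myc lines and 4.90 to 7.35 (median 5.64) in the clones (log2 fold change 4.14, SE 0.81, adjusted p = 0.0047). Itga7 had 9.74 and 8.61 in Tet-Myc lines and 4.83 to 5.80 (median 5.59) in clones (log2 fold change 3.78, SE 0.37, adjusted p = 0.00027). Itga7 was also higher than the 6.82 and 7.37 of HDACi 0 h (log2 fold change 2.08, adjusted p = 0.0054), and Itga3 was at the threshold there (log2 fold change 2.66, adjusted p = 0.05). The shared beta chain Itgb1 had 7.13 and 7.41 in Tet-Myc lines against 9.02 to 9.47 (median 9.19) in the clones (log2 fold change -1.94, adjusted p = 0.00015). Itgb1 read 7.44 and 7.45 at HDACi 0 h (log2 fold change -0.17, adjusted p = 0.49). Itgav, an alpha chain of vitronectin receptors, showed the same pattern, with 6.95 and 7.25 in the Tet-Myc lines, against 7.93 to 8.48 (median 8.30) in the clones (log2 fold change -1.15, adjusted p = 0.0014). Itgav read 7.73 and 7.03 at HDACi 0 h (log2 fold change -0.28, adjusted p = 0.41). In the list of focal adhesion genes and YAP targets 2 of 15 were higher and 2 lower against each set. Ankrd1, a YAP target, had 5.26 and 5.18 in the Tet-Myc lines and 7.69 to 9.37 (median 8.32) in the clones (at least 7.15-fold lower, adjusted p = 0.00092). Ccn1, another, had 7.65 and 7.88 in Tet-Myc lines and 8.80 to 9.28 (median 9.07) in clones (log2 fold change -1.30, adjusted p = 0.0004). Parva, an adhesion protein, was higher (log2 fold change 0.93, adjusted p = 0.0068 against the clones and log2 fold change 1.33, adjusted p = 0.0018 against HDACi 0 h).

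Neurog3 and Nkx2-3, high on all arrays of both F-class sets, were dim in the Tet-Myc lines. Of 4 tested genes of the endocrine progenitor list 3 were lower and 0 higher than in the clones, and of 6 tested 5 were lower than at HDACi 0 h. Neurog3, the bHLH factor of pancreatic endocrine progenitors, had 4.68 and 4.57 in the Tet-Myc lines, against 9.20 to 11.55 (median 10.42) in the clones (at least 27.1-fold lower, adjusted p = 0.00035). Neurog3 read 12.30 and 12.42 at HDACi 0 h (at least 106-fold lower in the Tet-Myc lines, adjusted p = 6.8e-05). Nkx2-3, a homeobox factor of gut mesenchyme and spleen, had 6.03 and 5.93 in Tet-Myc lines, against 10.72 to 11.92 (median 11.37) in clones (log2 fold change -5.40, SE 0.28, adjusted p = 3.8e-05). Nkx2-3 read 12.63 and 12.81 at HDACi 0 h (log2 fold change -6.75, adjusted p = 2.1e-06). Insm1, a zinc finger factor of endocrine cells, had 9.06 and 7.84 in Tet-Myc lines, against 10.54 to 11.73 (median 11.25) in clones (log2 fold change -2.73, adjusted p = 0.0015). Insm1 read 10.53 and 10.74 at HDACi 0 h (log2 fold change -2.19, adjusted p = 0.0058). Neurog3 was not detected in the lines without doxycycline either (4.64 and 4.97). The median of the C-class clones was 5.18 for Neurog3 and 7.39 for Nkx2-3, and it was 12.97 for Bgn and 10.65 for Lox. Neural genes gave 0 of 6 higher and 2 lower than in the clones, Map2, a microtubule protein, with 8.29 and 7.87 in Tet-Myc lines against 10.04 to 10.75 (median 10.40) in clones (log2 fold change -2.35, adjusted p = 0.00024) and Stmn2, a stathmin, with 12.57 and 11.33 in Tet-Myc lines against 13.28 to 13.66 (median 13.34) in clones (log2 fold change -1.44, adjusted p = 0.0047), and both were lower than at HDACi 0 h.

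Hox genes were lower for 8 of 22 tested and higher for 1 against the clones (median -0.62), where 21.1% of all genes were lower. Against HDACi 0 h 7 were lower and 0 higher (median -0.90), where 18.8% of all genes were lower. Hoxa9 had 7.41 and 7.63 in the Tet-Myc lines, against 8.83 to 9.63 (median 9.28) in the clones (log2 fold change -1.74, SE 0.21, adjusted p = 0.00066). Hoxa9 read 9.30 and 9.46 at HDACi 0 h (log2 fold change -1.86, adjusted p = 0.00053), and neither F-class set overlapped with the lines. Hoxb4 had 4.74 and 4.81 in Tet-Myc lines, against 5.01 to 7.76 (median 6.94) in clones (at least 2.22-fold lower, adjusted p = 0.033). Hoxb4 read 8.88 and 8.70 at HDACi 0 h (at least 8.96-fold lower in the Tet-Myc lines, adjusted p = 0.0024). Hoxc9 had 6.93 and 5.80 in Tet-Myc lines against 6.79 to 10.18 (median 9.03) in the clones (log2 fold change -2.58, adjusted p = 0.031), and line 1 lay above the lowest clone. Hoxd10 was the member that rose, with 6.55 and 9.38 in Tet-Myc lines against 4.89 to 5.43 (median 5.08) in clones (at least 5.09-fold higher, adjusted p = 0.0065). Hoxd10 read 7.87 and 7.60 at HDACi 0 h (log2 fold change 0.23, adjusted p = 0.82), and its value turned to -0.14 with the number format as a term. The Hox calls depended on single arrays, with 4 lower without line 1, 1 without line 2 and 5 without clone 1.

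In the TGF-beta and BMP pathway 3 of 18 genes were higher and 6 lower (3 lower without line 2) than in the clones, and 3 of 19 were higher and 5 lower than at HDACi 0 h. Fst, the activin-binding follistatin, had 4.81 and 4.67 in the Tet-Myc lines, against 7.47 to 9.10 (median 8.34) in the clones (at least 6.68-fold lower, adjusted p = 0.00047). Fst read 7.63 and 7.82 at HDACi 0 h (at least 4.28-fold lower in the Tet-Myc lines, adjusted p = 0.0012). Without doxycycline the lines read 9.16 and 8.34, within or near the range of the clones. Grem1, the BMP antagonist gremlin, had 5.41 and 5.54 in Tet-Myc lines against 7.07 to 8.55 (median 7.87) in clones (at least 4.58-fold lower, adjusted p = 0.0026). Grem1 read 6.02 and 5.94 at HDACi 0 h (at least 1.28-fold lower in the Tet-Myc lines, adjusted p = 0.43). Nog, another secreted inhibitor, was not detected in the Tet-Myc lines, was detected in 1 of 6 clones and was not tested against them. The ligand Tgfb2 was lower (log2 fold change -1.54, adjusted p = 0.014) and the ligand Tgfb3 higher (log2 fold change 1.61, adjusted p = 0.012) than in the clones. Bmp4, a BMP ligand, had 7.48 and 7.06 in Tet-Myc lines, above the 4.81 to 6.15 (median 5.03) of the clones (log2 fold change 1.98, adjusted p = 0.0042) and below the 9.81 and 8.78 of HDACi 0 h (log2 fold change -2.03, adjusted p = 0.01), and its value turned to -0.47 with the number format as a term. The BMP-induced inhibitors of differentiation split, Id2 with 7.92 and 8.19 in Tet-Myc lines against 9.24 to 9.80 (median 9.58) in clones (log2 fold change -1.49, adjusted p = 0.00068) and Id3 with 8.32 and 8.65 in Tet-Myc lines against 7.36 to 8.03 (median 7.66) in clones (log2 fold change 0.82, adjusted p = 0.014).

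In the Wnt pathway 3 of 12 tested genes were lower and 1 higher than in the clones, near the 21.1% of all genes that were lower, and 4 of 13 were lower and 0 higher than at HDACi 0 h. Wnt5a, a non-canonical Wnt ligand, had 7.35 and 7.09 in the Tet-Myc lines, against 9.72 to 10.73 (median 10.03) in the clones (log2 fold change -2.90, SE 0.25, adjusted p = 0.00018). Wnt5a read 10.74 and 10.34 at HDACi 0 h (log2 fold change -3.32, adjusted p = 8.2e-05). Sfrp1, a secreted Wnt antagonist, had 9.02 and 8.86 in Tet-Myc lines, against 9.95 to 10.59 (median 10.39) in clones (log2 fold change -1.39, adjusted p = 0.00098). Sfrp1 read 11.71 and 12.03 at HDACi 0 h (log2 fold change -2.93, adjusted p = 3.4e-05). Both were below every array of either F-class set. Lef1, a nuclear effector, had 7.33 and 6.51 in Tet-Myc lines against 8.64 to 8.80 (median 8.73) in the clones (log2 fold change -1.80, adjusted p = 0.00037). Lef1 read 7.61 and 7.19 at HDACi 0 h (log2 fold change -0.48, adjusted p = 0.15). Of 16 tested immediate early genes 5 were higher and 4 lower than in the clones. Sgk1, a serum-induced kinase, had 7.92 and 7.83 in Tet-Myc lines against 9.68 to 11.25 (median 10.59) in clones (log2 fold change -2.62, adjusted p = 0.001). Sgk1 read 12.18 and 12.11 at HDACi 0 h (log2 fold change -4.27, adjusted p = 0.0001), and the lines without doxycycline read 11.28 and 12.32. Ier3 (log2 fold change 2.04, adjusted p = 0.0039), Klf6 (log2 fold change 1.54, adjusted p = 0.012) and Dusp6, an ERK phosphatase (log2 fold change 1.46, adjusted p = 0.016), were higher, and Egr2 (at least 1.92-fold lower, adjusted p = 0.0044) and Spry4, a receptor kinase inhibitor (log2 fold change -1.45, adjusted p = 0.01), were lower than in the clones. Without line 2 the number called higher was 1, and without line 1 the number called lower was 2.

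The largest rise was Slc38a5, a glutamine transporter, with 14.83 and 12.85 in the Tet-Myc lines, against 8.33 to 8.91 (median 8.63) in the clones (log2 fold change 5.20, SE 0.43, adjusted p = 0.00016). Slc38a5 read 10.18 and 10.38 at HDACi 0 h (log2 fold change 3.56, adjusted p = 0.00069). Cldn11, a claudin of tight junctions, had 11.01 and 11.94 in Tet-Myc lines and 4.72 to 8.59 (median 6.47) in clones (log2 fold change 4.82, adjusted p = 0.0033). Cldn11 read 8.57 and 8.43 at HDACi 0 h (log2 fold change 2.98, adjusted p = 0.042). Ly6f, a surface antigen of the Ly6 family, had 8.52 and 9.77 in Tet-Myc lines against 4.74 to 5.04 (median 4.79) in clones (at least 11.6-fold higher, adjusted p = 7.0e-05), and was not well above background in any clone. Klk1, a kallikrein protease, was likewise dim in the clones, with 9.08 and 7.93 in Tet-Myc lines against 4.50 to 4.79 (median 4.67) in clones (at least 7.39-fold higher, adjusted p = 7.5e-05), and was called against HDACi 0 h too (at least 8.52-fold higher in the Tet-Myc lines, adjusted p = 3.5e-05). Grb7, a receptor adaptor, had 11.37 and 12.33 in the Tet-Myc lines and 5.47 to 10.03 (median 8.26) in the clones (log2 fold change 4.07, adjusted p = 0.028), whose values spread widely. Ntn5, a netrin, had 7.25 and 11.91 in Tet-Myc lines against 5.52 to 6.02 (median 5.67) in clones (log2 fold change 3.89, adjusted p = 0.012), far higher in line 2.

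Samd9l, an interferon-induced gene, had 10.62 and 10.53 in the Tet-Myc lines and 5.71 to 6.96 (median 6.58) in the clones (log2 fold change 4.14, adjusted p = 0.0001). Gsta3, a glutathione transferase, had 8.15 and 10.73 in Tet-Myc lines and 4.92 to 5.65 (median 5.15) in clones (log2 fold change 4.20, adjusted p = 0.00093). Aox3, an aldehyde oxidase, had 8.75 and 9.20 in Tet-Myc lines against 4.81 to 5.35 (median 4.85) in clones (at least 10.2-fold higher, adjusted p = 2.5e-05). Slc28a1, a nucleoside transporter, had 8.88 and 9.81 in Tet-Myc lines against 4.71 to 6.09 (median 5.48) in clones (log2 fold change 3.93, adjusted p = 0.0004). These 4 were called higher against HDACi 0 h as well, as were Ric3, Gngt2, Syne4, Pwwp2b and Mzb1, whose log2 differences from the clones ran from 3.90 for Mzb1 to 4.47 for Ric3. Nt5e, the ecto-nucleotidase CD73, and Pnkd were not. Nt5e had 11.30 and 8.35 in the Tet-Myc lines, against 4.82 to 7.32 (median 5.46) in the clones (log2 fold change 4.23, adjusted p = 0.005). Nt5e read 9.48 and 9.43 at HDACi 0 h (log2 fold change 0.37, adjusted p = 0.8). Pnkd had 12.79 and 10.20 in Tet-Myc lines, against 6.80 to 8.12 (median 7.58) in clones (log2 fold change 3.99, adjusted p = 0.0017). Pnkd read 10.35 and 10.41 at HDACi 0 h (log2 fold change 1.11, adjusted p = 0.24).

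Epithelial genes were higher for 4 of 23 and lower for 0 against each F-class set, with medians of 0.95 against the clones and 0.83 against HDACi 0 h, where 21.9% and 19.2% of all genes were higher. Krt19, a simple epithelial keratin, had 8.78 and 11.06 in the Tet-Myc lines, against 4.87 to 7.62 (median 5.76) in the clones (log2 fold change 4.00, SE 0.81, adjusted p = 0.0055). Krt19 read 5.36 and 5.06 at HDACi 0 h (at least 22.8-fold higher in the Tet-Myc lines, adjusted p = 0.0039). Krt18, another, had 7.85 and 8.91 in Tet-Myc lines and 4.78 to 7.09 (median 5.45) in clones (log2 fold change 2.61, adjusted p = 0.014), and was not called against HDACi 0 h (log2 fold change 1.64, adjusted p = 0.13). Without line 2 the number called higher than in the clones was 0, without line 1 it was 3 and without clone 13 it was 9. In the keratinocyte list 0 of 9 were higher and 2 lower than in the clones, Krtdap (log2 fold change -2.98, adjusted p = 0.021) and Sprr2a1 (log2 fold change -0.69, adjusted p = 0.0086), and 0 were called either way against HDACi 0 h. With the number format as a term both turned direction (0.022 for Krtdap and 0.025 for Sprr2a1).

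Interferon-induced genes were higher for 8 of 13 and lower for 3 against the clones (median 0.66), where 21.9% of all genes were higher and 21.1% lower. Against HDACi 0 h 6 of 14 were higher and 1 lower (median 0.47), where 19.2% of all genes were higher and 18.8% lower. Rsad2, the antiviral protein viperin, had 10.92 and 7.03 in the Tet-Myc lines, against 4.67 to 5.08 (median 4.75) in the clones (at least 10.2-fold higher, adjusted p = 0.0042). Rsad2 read 6.02 and 6.11 at HDACi 0 h (log2 fold change 2.91, adjusted p = 0.032). Line 1 was well above line 2. Irf1, an interferon-induced factor, had 10.57 and 11.79 in Tet-Myc lines and 7.47 to 8.90 (median 8.07) in clones (log2 fold change 3.04, adjusted p = 0.0017). Irf1 read 9.54 and 9.24 at HDACi 0 h (log2 fold change 1.79, adjusted p = 0.028). All 4 of its probes were called higher. Tap1, the peptide transporter of antigen presentation, had 7.86 and 7.29 in Tet-Myc lines against 4.83 to 5.51 (median 5.04) in clones (at least 3.90-fold higher, adjusted p = 0.00016). Ifitm3, an antiviral membrane protein, had 13.38 and 14.47 in Tet-Myc lines against 10.83 to 11.89 (median 11.28) in clones (log2 fold change 2.66, adjusted p = 0.00069). Both were higher than at HDACi 0 h, which read 5.37 and 4.80 for Tap1 and 8.88 and 8.81 for Ifitm3. B2m, the light chain of MHC class I, went the other way with 12.70 and 11.50 in Tet-Myc lines against 12.81 to 13.32 (median 13.07) in clones (log2 fold change -0.97, adjusted p = 0.026), as did Ifit2 (at least 1.61-fold lower, adjusted p = 0.00076) and Ifit3 (at least 1.25-fold lower, adjusted p = 0.0058). Leaving out line 1 left 4 called higher, and leaving out line 2 left 2.

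Among writers and readers of DNA methylation 4 of 7 tested genes were higher and 1 lower than in the clones, where 21.9% of all genes were higher. Against HDACi 0 h 3 were higher, where 19.2% of all genes were. Dnmt1, the maintenance methyltransferase, had 11.35 and 11.10 in the Tet-Myc lines, against 10.46 to 10.95 (median 10.51) in the clones (log2 fold change 0.64, adjusted p = 0.011). Dnmt1 read 10.39 and 10.07 at HDACi 0 h (log2 fold change 1.00, adjusted p = 0.0036). Uhrf1, its recruiter, had 13.11 and 13.02 in Tet-Myc lines against 12.04 to 12.65 (median 12.41) in clones (log2 fold change 0.66, adjusted p = 0.012), but a second, dim probe read 5.37 and 5.67 in Tet-Myc lines against 5.97 to 7.14 in clones (log2 fold change -1.05, adjusted p over probes = 0.021), and the mean of its probes gave -0.19. Tdg, a glycosylase of active demethylation, was lower (log2 fold change -0.68, adjusted p = 0.0038). Mbd1 was called by its brightest probe (log2 fold change 0.44, adjusted p = 0.019), and 1 of its 4 probes was called the other way. Its value turned to -0.14 with the number format as a term. Leaving out line 1 left 1 gene called higher, as did leaving out line 2.

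In the polycomb list 3 of 15 genes were higher (1 without line 2) and 5 lower (3 without either line in turn) than in the clones, and 1 was higher and 1 lower than at HDACi 0 h. Of all genes, 21.9% were higher and 21.1% lower than in the clones. Ezh2, the H3K27 methyltransferase, had 11.07 and 11.09 in the Tet-Myc lines, against 11.77 to 12.22 (median 11.95) in the clones (log2 fold change -0.89, SE 0.13, adjusted p = 0.0014). Ezh2 read 11.99 and 11.83 at HDACi 0 h (log2 fold change -0.83, adjusted p = 0.003), and both lines lay below both sets. Cbx7, a chromodomain subunit, had 8.67 and 9.30 in Tet-Myc lines against 6.56 to 7.19 (median 7.09) in clones (log2 fold change 2.02, adjusted p = 0.00045). Cbx7 read 8.72 and 8.75 at HDACi 0 h (log2 fold change 0.25, adjusted p = 0.48). Bmi1, a ring finger subunit, had 8.12 and 7.65 in Tet-Myc lines against 8.45 to 9.19 (median 8.98) in clones (log2 fold change -1.05, adjusted p = 0.0057). Bmi1 read 7.23 and 6.92 at HDACi 0 h (log2 fold change 0.81, adjusted p = 0.034), and its value turned to 0.13 with the number format as a term. Histone deacetylases gave 6 of 14 higher and 0 lower against the clones (21.9% and 21.1% over all genes), and 2 and 2 against HDACi 0 h. The fit against the 11 F-class arrays called 2 higher, or 1 with the number format as a term. Hdac7, a class IIa enzyme, had 7.39 and 8.61 in the Tet-Myc lines, against 4.77 to 5.50 (median 4.84) in the clones (at least 5.22-fold higher, adjusted p = 0.00034). Hdac7 read 5.39 and 5.56 at HDACi 0 h (log2 fold change 2.52, adjusted p = 0.00078). Hdac11 (at least 3.20-fold higher, adjusted p = 0.0024), Hdac5 (log2 fold change 1.42, adjusted p = 0.0075) and Hdac6, a tubulin deacetylase (log2 fold change 1.33, adjusted p = 0.0031), were higher than in the clones and were not called against HDACi 0 h, and Hdac5 turned to -0.17 with the number format as a term. The counts fell to 3 without line 1 and 2 without line 2.

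In the ATF4 and serine synthesis list 3 of 20 were higher (1 without either line in turn) and 5 lower (3 without line 2) than in the clones, and 6 were higher and 2 lower than at HDACi 0 h. Atf4, the stress factor itself, had 6.04 and 6.83 in the Tet-Myc lines, against 8.10 to 8.46 (median 8.19) in the clones (log2 fold change -1.78, adjusted p = 0.00046). Atf4 read 6.87 and 6.67 at HDACi 0 h (log2 fold change -0.33, adjusted p = 0.29). Cholesterol synthesis gave 1 of 15 higher and 5 lower, or 3 lower without line 1, clone 6 or clone 7 (Insig1, a sensor of the pathway, log2 fold change -1.62, adjusted p = 0.0016), with 0 and 2 against HDACi 0 h. Proteasome subunits gave 1 of 20 higher and 6 lower, or 3 lower without line 1 (Psmc5, log2 fold change -0.69, adjusted p = 0.0023), with 0 and 8 against HDACi 0 h. Heat shock genes gave 0 of 14 higher and 2 lower than in the clones.

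Imprinted genes gave 4 of 13 higher and 3 lower than in the clones (1 higher and 1 lower without line 1), led by Peg3, a zinc finger gene, with 7.54 and 8.87 in the Tet-Myc lines and 4.99 to 5.81 (median 5.26) in the clones (log2 fold change 2.92, adjusted p = 0.00055). Germ layer and lineage lists held few tested genes. Against the clones 0 of 4 endoderm genes were higher and 2 lower, 2 of 4 mesoderm genes and 2 of 10 trophoblast genes were higher with 0 lower, 2 of 8 germline genes were higher and 1 lower, and 0 of 4 two-cell and oocyte genes were higher and 1 lower. Ascl2, a trophoblast factor, had 6.67 and 7.14 in the Tet-Myc lines and 5.41 to 6.03 (median 5.57) in the clones (log2 fold change 1.28, adjusted p = 0.0015), and was higher than at HDACi 0 h too (log2 fold change 1.36, adjusted p = 0.0021).

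Of 14 markers of macrophages and blood on the array 4 were tested, of which 2 were lower and 0 higher than in the clones, and 0 were called against HDACi 0 h. Laptm5, a lysosomal membrane protein, had 9.09 and 12.55 in the Tet-Myc lines, against 11.48 to 13.49 (median 12.49) in the clones (log2 fold change -1.69, adjusted p = 0.13). Laptm5 read 11.59 and 11.86 at HDACi 0 h (log2 fold change -0.91, adjusted p = 0.48). The mean level of the 14 was 5.30 to 5.61 in the Tet-Myc lines and 5.61 to 6.03 in the clones, with 2 or 3 detected on each Tet-Myc array and 3 to 5 on each clone. Lyz2, lysozyme of myeloid cells, had 4.71 and 4.67 in the Tet-Myc lines, against 7.36 to 9.27 (median 8.36) in the clones (at least 6.26-fold lower, adjusted p = 0.00078). Lyz2 read 5.17 and 5.12 at HDACi 0 h and was undetected on both Tet-Myc and both HDACi 0 h arrays. Ccl7 and Lyz1 above fell with it, and the part of other cells in them was not tested. Endothelial markers gave 1 of 7 tested higher, Esam (at least 4.33-fold higher, adjusted p = 0.0014), and 1 lower, Flt1 (at least 1.48-fold lower, adjusted p = 0.043), with mean levels of 6.12 to 6.79 in the Tet-Myc lines and 5.96 to 6.22 in the clones. Of 3 red cell markers on the array 1 was tested, Hba-a1 (log2 fold change 2.31, adjusted p = 0.015), while the embryonic globin Hbb-y fell.

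**Figure D5:**
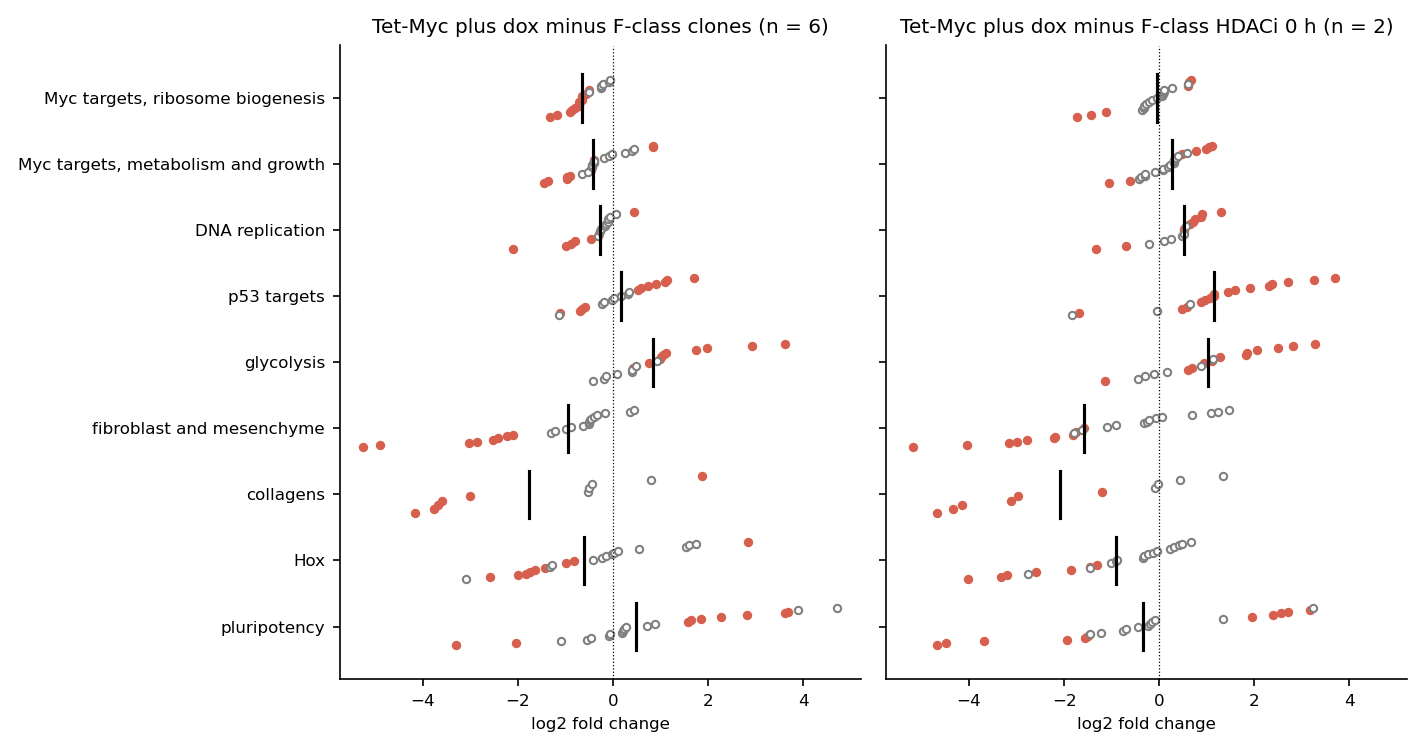
Log2 fold change (horizontal axis) of each tested member of 9 gene lists (rows), Tet-Myc plus dox minus the 6 F-class clones on the left and minus the 2 F-class HDACi 0 h arrays on the right. Filled red points are called and open points are not, and black bars are list medians. Fibroblast, collagen and Hox medians lie below 0 and the glycolysis median above 0 in both panels, while the ribosome biogenesis median is -0.65 on the left and -0.05 on the right.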

How the data were processed

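RNA of 51 mouse samples was measured on Illumina MouseRef-8 v2 beadarrays. The authors deposited intensity values that are not normalized, each with a detection p-value per the file headers. They also deposited scaled intensity values with 1 median for every array, used only as an alternative. Per the labels' protocols, RNA was extracted with QIAGEN RNeasy kits. All 51 arrays went through neqc (limma 3.58.1, R 4.3.3), which corrects background by negative controls read from the detection p-values, adds an offset of 16, normalizes by quantiles and takes log2. Of 25697 probes, the platform annotation gave 1 symbol to 23978, several to 0 and none to 1719. Each of 16593 genes was read by its probe with the highest mean, and 16582 matched RefSeq, used for names and promoters.

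A fit tested the genes that 2 or more of its arrays detected (detection p under 0.05), by limma's lmFit and eBayes, two-sided. Genes with an adjusted p (Benjamini-Hochberg, all genes of the fit) under 0.05 were called. An adjusted p over probes is over 13871 probes. The comparison with the clones was fitted on its 8 arrays, and those with HDACi 0 h in 1 fit of 3 groups. The fit was tested on simulated data with known changes. The members and the 44 gene lists were chosen with earlier results of these data known. Named genes were the 4 factors, Nanog, Cdh1 and Dppa5a, the 20 largest called rises and falls (clone-like symbols left out), and up to 4 called members each way per list, or 2 uncalled ones where none was called. The number of arrays limits the precision.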

Additional observations from a re-analysis of the deposited data

Results flagged for a closer look

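Among the 6 clones, 1 array stood apart from the other 5 for 11 of the 214 named genes tested by Dixon's test of the gap to the nearest clone. Chance flags about 1 in 20 groups, which over 214 genes is about this many. The high ones were Mzb1 in clone 7 (8.50, next highest clone 6.11), Nt5e in clone 7 (7.32, next 5.64), Dnmt1 in clone 7 (10.95, next 10.56), Spint1 in clone 13 (6.88, next 5.33), Hdac7 in clone 27 (5.50, next 4.92), Ly6f in clone 2 (5.04, next 4.83), Rsad2 in clone 2 (5.08, next 4.78), Pcgf6 in clone 1 (12.04, next 11.47) and Psmb7 in clone 1 (13.71, next 13.62). The low ones were Cycs in clone 13 (7.42, next lowest 7.75) and Sprr2a1 in clone 6 (8.10, next 8.38).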

How the results depend on the processing

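The 8 other settings of processing left the 4062 calls of the main comparison within 1.5 times, from 3797 with genes detected at p under 0.01 to 4408 with no filter on dim genes, and the normexp and scaled-value alternatives gave 4169 and 4134. At 2-fold or more the calls were 1680 (970 higher, 710 lower) against the clones, 2009 (945 and 1064) against HDACi 0 h, 2592 (1454 and 1138) for the lines without doxycycline against the clones and 1845 (1137 and 708) for HDACi 0 h against the clones. With all 11 F-class arrays as 1 group, an alternative chosen after seeing the data, 1530 genes were called (884 higher, 646 lower), and with the number format as a term 2212 (1172 and 1040). Leaving out 1 array at a time gave 2565 to 3942 calls in the main comparison (1298 to 1988 higher, 1267 to 1954 lower), 2237 to 3352 against HDACi 0 h (1158 to 1605 and 1073 to 1769), 3449 to 5064 for the lines without doxycycline against the clones (1520 to 2435 and 1929 to 2629) and 2622 to 4576 for HDACi 0 h against the clones (1276 to 2286 and 1346 to 2290); a lone array was assumed to vary like the other groups. Line and clone numbers 1 and 2 are shared, and with the number as a replicate block in the fit of 8 arrays 452 genes were called (280 higher, 172 lower). The other clones carry numbers found on 1 array each, so they drop out of the contrast in that fit. Only clones 1 and 2 are then set against the lines, so a fall in calls was built into this setting. Deviations of same-numbered arrays correlated at 0.203 and -0.147, and those of other-numbered arrays at 0.147 and -0.203. The deviations of the 2 lines from their mean mirror each other, so these values cannot tell whether lines and clones are paired. No label pairs lines with clones. Of 210 called named genes 47 kept their direction and call in each of 19 alternatives, and 24 turned direction in at least 1. The replicate block is 1 of these 19, and with it 141 named genes came out weaker. With the number format as a term, log2 fold changes opposite to the main ones were 0.61 for Aen, 0.37 for Aif1, 0.13 for Bmi1, -0.47 for Bmp4, -0.15 for Ccnd2, 0.13 for Cdc25a, 0.16 for Cycs, 0.029 for Eif4e, 0.75 for Fosl1, -0.35 for Fzd2, -0.17 for Hdac5, -0.14 for Hoxd10, -0.37 for Igf2r, 0.022 for Krtdap, 0.30 for Mad2l1, -0.14 for Mbd1, 0.30 for Mcm7, 0.32 for Myc, 1.36 for Plk2, 0.074 for Psmc4, 0.077 for Rplp0, 0.025 for Sprr2a1, 0.40 for Tnfrsf10b and 0.44 for Ube2c. Uhrf1 gave -0.19 with the mean of all its probes. The fit with the number format as a term in effect compares the Tet-Myc lines with the 4 F-class arrays of their own format. The HDACi 0 h arrays are among these 4, so its reversals are not separate from the HDACi 0 h comparison. The cause was not tested for these. Genes undetected in a group, such as Bgn and Lox in the Tet-Myc lines, have only a bound on their fold.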
